A study of Mus musculus with 15 samples.

Results

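Notch1 antibody-high pixels are the tissue pixels of 4 embryonic day 10 (E10) mouse sections whose antibody counts held the largest share of Notch1 antibody. A pixel is 1 crossing of the microfluidic barcoding grid, a small square of tissue that can hold several cells or part of one. Within each section, the 10% of tissue pixels with the most Notch1 counts per 10000 antibody counts were taken, where a tissue pixel has a transcript total of at least 0.1 of the section's 95th percentile. This gave 574 of 5735 tissue pixels, with 5161 other tissue pixels for comparison; the 11 transcript libraries of the whole series hold 17046 tissue pixels. The members were chosen from the antibody values, so those values are given here as a description without a test, and the tests below are on the transcripts of the same pixels.

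The series barcoded frozen sections of mouse embryos at E10, E11 and E12 in grids with channels 10, 25 or 50 µm wide and counted transcripts per pixel. Antibody counts for 22 antigens are paired by title with 4 of the E10 transcript libraries: 2 sections at 50 µm (replicates 1 and 3), 1 at 25 µm (replicate 1) and 1 at 10 µm (replicate 2). All 4 sections carry the same tissue and stage labels and no treatment is named; strain, genotype, sex, the plane of the section and whether 2 sections came from different embryos are not given in the labels used here, so that p-values measure the spread between these sections only. Pixel names are grid positions and recur in every section by design. The 4 transcript libraries held 11525934, 10755555, 1566377 and 5376495 counts and the antibody libraries 2844140, 4898157, 2651858 and 1824608, in the order 50 µm replicate 1, 50 µm replicate 3, 25 µm and 10 µm.

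Notch1 is a cell surface receptor. Binding of a ligand of the Delta or Jagged family on a neighbouring cell leads to cleavage by ADAM proteases and the gamma-secretase complex, and the freed intracellular domain joins Rbpj and a Mastermind-like protein to switch on target genes such as those of the Hes and Hey families. In the embryo the pathway is known for keeping neural progenitors from differentiating, for somite formation and for the growth of blood vessels.

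The Notch1-high pixels differed from the rest of the section by a modest antibody level. In the 50 µm section, replicate 1, 86 of 859 tissue pixels were taken, with a median of 575 Notch1 counts per 10000 antibody counts against 456 in the other pixels. In the 50 µm section, replicate 3, 84 of 839 were taken, with medians of 597 and 435. The 25 µm section gave 177 of 1766 with medians of 354 and 217, and the 10 µm section gave 227 of 2271 with medians of 576 and 383. The ratio of the medians was therefore between 1.26 and 1.63, lowest in replicate 1 at 50 µm and highest at 25 µm.

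The threshold cuts a continuous range of values. The lowest member and the highest pixel outside were at 548.96 and 548.71 per 10000 in the 50 µm section, replicate 1, at 568.07 and 567.96 in replicate 3, and at 322.4 and 321.6 in the 25 µm section. In the 10 µm section 2 pixels shared the value at the threshold, 526.3, and 1 of them was taken by its place in the table. Members had a median of 132, 251.5, 47 and 34 Notch1 antibody counts in the same order of sections, and the other pixels 117, 198, 29 and 25. Their antibody totals were lower than those of the other pixels in each section, with medians of 2235.5 against 2652, 4169 against 4701, 1276 against 1441, and 581 against 667. Counting error alone, taken as binomial, would make up 39.0%, 12.6%, 33.7% and 63.5% of the variance of the Notch1 share among tissue pixels, so that the 10 µm section separates its members least well.

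The members lay in stripes along the grid columns most clearly in the 50 µm section, replicate 3. Columns are the positions given by the second number of a pixel's name. In that section 62.8% of a member's tissue neighbours in its column were members, against 4.08% in its row. The shares were 21.2% and 20.7% in replicate 1 at 50 µm, 27.3% and 16.5% at 25 µm, and 19.6% and 14.4% at 10 µm. Columns accounted for 25.5% of the variance of the log2 Notch1 share in the 50 µm section, replicate 1, 78.5% in replicate 3, 26.4% at 25 µm and 29.3% at 10 µm. Rows accounted for 17.5%, 2.89%, 8.56% and 5.47%. These percentages are not adjusted for the number of columns or rows. The counting-error percentages above are for the share itself, so the scales differ. The 3 columns with the most members held 27.9%, 65.5%, 24.3% and 26.0% of them on 8.85%, 9.89%, 7.53% and 6.47% of the tissue. In replicate 3 at 50 µm, column 46 alone held 24 members among its 27 tissue pixels, and in the 10 µm section column 25 held 30 among 50. Striping was not particular to Notch1, which ranked 18th, 7th, 17th and 11th of the 22 antibodies by the share of variance that columns took, in the order above. Transcript totals were striped too, with columns taking 63.3%, 59.1%, 26.2% and 63.6% of the variance of their log2 values.

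**Figure D1:**
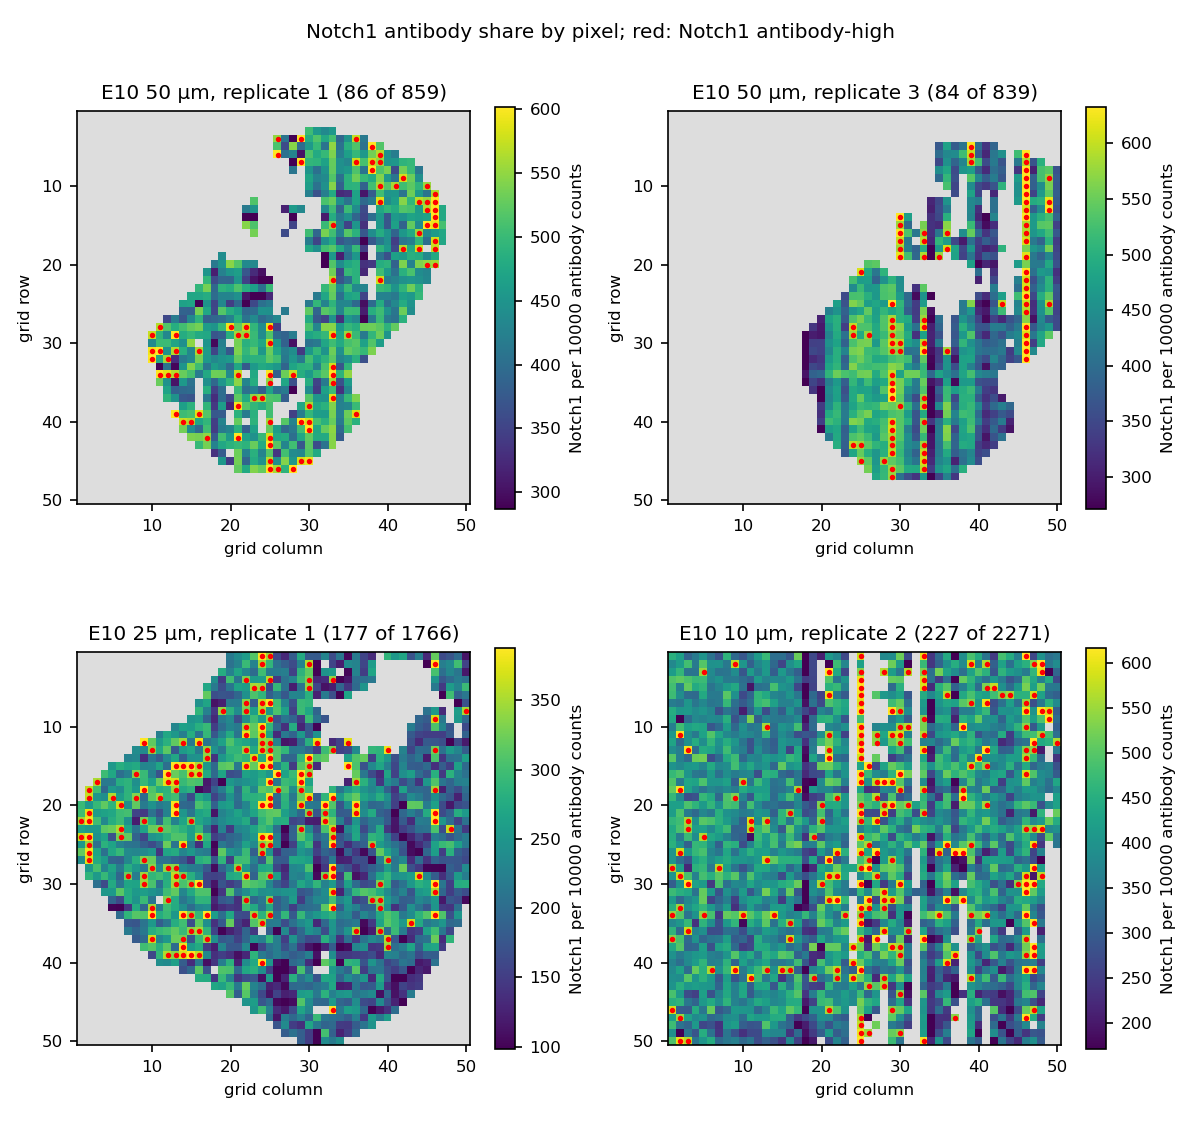
Notch1 counts per 10000 antibody counts (colour, scaled within each section) in tissue pixels on the grid, with Notch1 antibody-high pixels as red dots and pixels outside the tissue in grey. Members form vertical runs in several columns, most of all in the 50 µm section, replicate 3, where the 3 fullest columns hold 65.5% of them.

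The same columns recurred in sections of different pixel width. Of 30 columns with tissue in all 4 sections, 4 exceeded the overall 10% in every section, and these 4 held 190 of the 574 members (33.1%) on 10.4% of the tissue pixels. Each column is marked by an 8-base barcode, shown here because barcode and grid position are what these columns have in common across sections. As written in the deposited list of barcodes, where the last 8 of 16 bases change with the column, they are:
column 25: AGATCGCA
column 30: CAACCACA
column 33: CACTTCGA
column 46: GAATCTGA

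In column 25, 36.0% of tissue pixels were Notch1-high in the 50 µm section, replicate 1, 12.0% in replicate 3, 34.0% at 25 µm and 60.0% at 10 µm. Column 46 gave 80.0% (8 of 10 pixels), 88.9%, 23.7% and 32.0%, column 33 gave 17.1%, 46.7%, 26.8% and 22.0%, and column 30 gave 12.1%, 28.1%, 16.0% and 22.0%. Columns 18 and 34 held no member in any section. The rows numbered 25, 30, 33 and 46 carry the same 8 bases in their own part of the barcode. Of their 518 tissue pixels 50 (9.65%) were Notch1-high, against 190 of 599 (31.7%) in the columns. The columns were picked for exceeding 10% in every section and the rows were not. A column share above 10% was therefore fixed in advance, and the comparison is a description only. Across columns with at least 5 tissue pixels, the median Notch1 share of a column correlated between every pair of sections (Spearman 0.36 to 0.76 over the 6 pairs, 30 to 50 columns a pair). Across rows the same coefficient ran from -0.21 to 0.45 (42 to 50 rows). Among the 22 antibodies the median of this column coefficient ranged from 0.04 to 0.84, and Notch1, at 0.47, was 12th. The columns of a pair share barcodes and library method, and the part of column position in which pixels are Notch1-high was not tested.

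**Figure D2:**
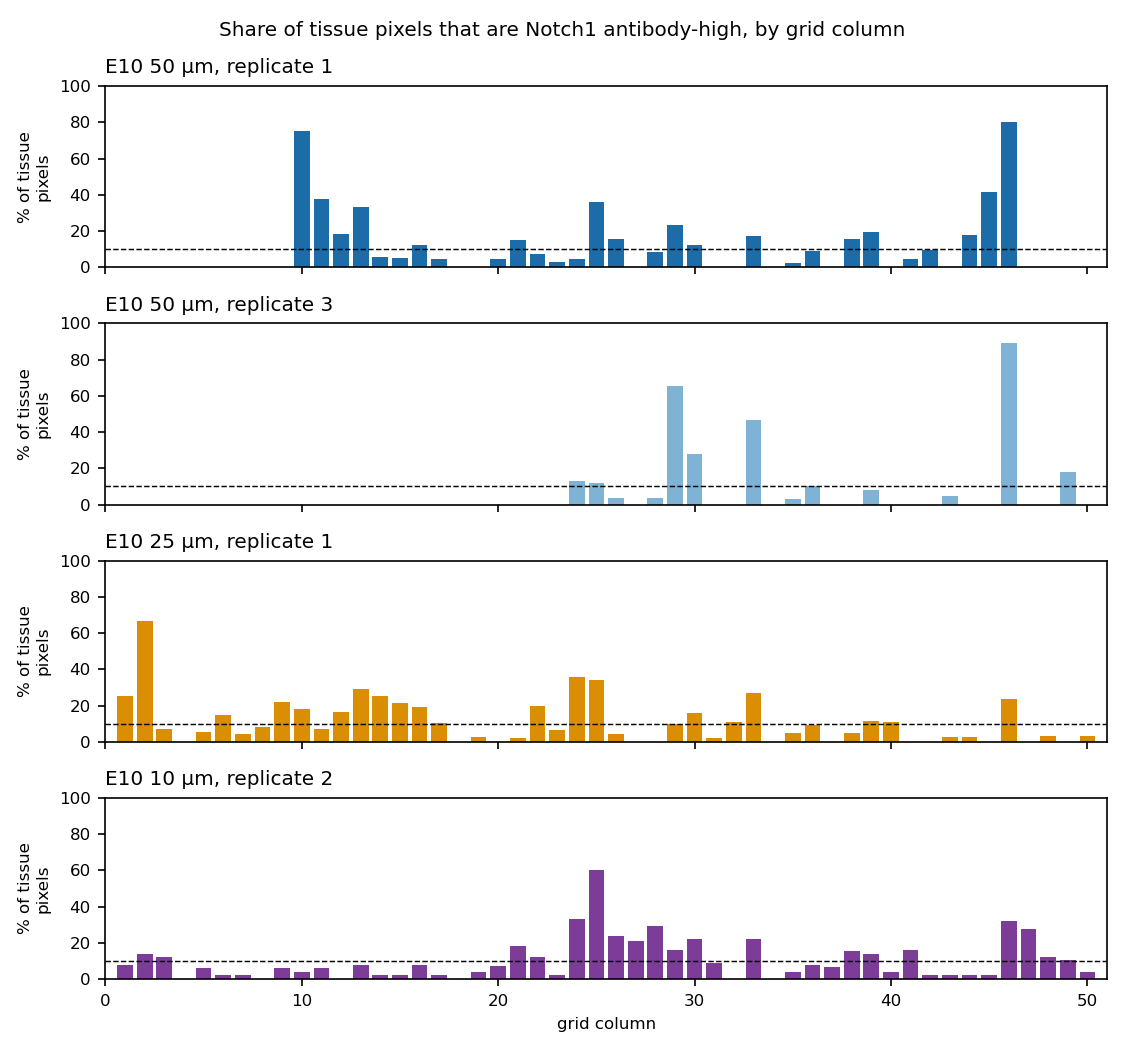
Percentage of tissue pixels in each grid column that are Notch1 antibody-high, by section, with the overall 10% as a dashed line. Columns 25, 30, 33 and 46 stand above the line in all 4 sections, and column 46 reaches 80.0% and 88.9% in the 50 µm sections.

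Some other antibodies moved with Notch1 in the chosen pixels and others against it. With Notch1 left out of the antibody total, 8 of the 21 others took a larger share in the Notch1-high pixels in all 4 sections: CD201 (Procr), CD45, CD49d (integrin alpha 4), CD55, folate receptor, Ly-6A/E, MAdCAM-1 and P2RY12. Their ratios of high to other pixels lay between 1.108 and 1.518. The antigens CD102 (ICAM2), with ratios of 0.593 to 0.911, and the panendothelial cell antigen, with 0.545 to 0.939, took a smaller share in all 4. Other antigens found on endothelium went both ways: KDR had ratios of 1.07, 1.25, 0.761 and 1.00 and ESAM 1.04, 1.07, 0.655 and 0.990 in the 50 µm sections, replicates 1 and 3, the 25 µm and the 10 µm section, and CD201 and MAdCAM-1 were among the 8 with a larger share. ESAM was sparse at 10 µm, with 8.08 per 10000 antibody counts in the other pixels, against 220, 576 and 644 in the sections before it. Of the 574 members, 105 (18.3%) were also in the top 10% for MAdCAM-1, 48 (8.36%) for CD63, 40 (6.97%) for EpCAM and 21 (3.66%) for the panendothelial antigen. Each of these sets holds 10% of the tissue pixels, and only the MAdCAM-1 share lay above that.

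Transcript recovery did not separate the classes in 1 direction. Median transcripts per pixel were 13337 in Notch1-high and 10954 in other pixels of the 50 µm section, replicate 1, 11826.5 and 10479 in replicate 3, 997 and 823 at 25 µm, and 1633 and 2150 at 10 µm. The Notch1-high pixels were thus the richer class in 3 sections and the poorer in the 10 µm section. The mean log2 ratio was 0.08 ± 0.32 (SD, n = 4 sections), with a two-sided exact sign-flip permutation p of 0.625, where 4 sections allow no p below 0.13. When the class was rebuilt after subtracting the column and row medians from the antibody share, the mean log2 ratio was -0.18. In sums of this kind, fewer cells of a type and less RNA per cell cannot be told apart.

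The Notch1 transcript checks the label of the class and was barely higher in it. Its level was 84.8 CPM (counts scaled to a class total of 1000000) in Notch1-high pixels and 82.0 in the others in the 50 µm section, replicate 1. It was 53.2 and 64.4 in replicate 3, 43.1 and 23.9 at 25 µm, and 69.2 and 44.6 at 10 µm. The Notch1-high pixels were therefore higher in 3 sections, by little in one of them, and lower in the other. These levels rest on 104, 60, 8 and 30 Notch1 counts in the members, so the 25 µm value is imprecise. Summed over pixels and fitted with section as a block, the log2 fold change was 0.12 (SE 0.17, adjusted p = 1.00, edgeR quasi-likelihood test with Benjamini-Hochberg adjustment, n = 4 sections). It was -0.0083 without the 10 µm section. Pixel by pixel, the antibody share and the transcript share had Spearman coefficients of 0.08, 0.09, 0.08 and 0.05 over 859, 839, 1766 and 2271 pixels that share depth and grid position. Notch1 lies on chromosome 2 at 26457903-26516663, minus strand, in GENCODE M21 on build GRCm38, which was used for positions only.

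The same selection applied to 7 other antibodies gave mixed differences in their own transcripts. Epcam, which encodes the epithelial adhesion molecule bound by the EpCAM antibody, had log2 ratios of 2.76, 2.51 and 3.36 between EpCAM-high and other pixels in the 50 µm sections, replicates 1 and 3, and the 25 µm section. The 25 µm ratio is imprecise, with 6 Epcam counts in EpCAM-high pixels and 4 in the others. In the 10 µm section, with 1 count in the EpCAM-high pixels, the ratio was -0.34. For Kdr, a receptor of vascular endothelial growth factor, the ratios in the pixels high for its antibody were 0.56 and -0.04 at 50 µm, 1.92 at 25 µm and 0.18 at 10 µm. Esam gave 0.91, -0.48, 2.24 and 1.26 in the same order of sections, Cd63 0.20, 0.66, -0.22 and 0.99, Kit 0.78, 0.40, 0.33 and -1.11, and Itga4, the transcript of CD49d, -0.07, -0.14, 1.46 and -0.47. At 25 µm these 4 ratios rest on 5, 10, 4 and 11 counts in the pixels high for the antibody. At 10 µm the ESAM and KIT antibodies held only 8.08 and 10.2 per 10000 antibody counts in pixels outside the Notch1-high class. The median antibody total of those pixels was 667, so the Esam and Kit ratios at 10 µm rest on classes drawn from very few antibody counts. Madcam1 had 0 or 1 counts in the pixels high for its antibody in the 3 sections where it was listed. The Notch1 ratios, 0.05, -0.27, 0.83 and 0.63, were below those of Epcam in the first 3 sections. At 25 µm this rests on 8 Notch1 and 6 Epcam counts in the high pixels. The difference was not tested.

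Of 10947 genes tested between Notch1-high and other pixels, 1 passed an adjusted p of 0.05 (0.00913%), and it was lower in the Notch1-high pixels. This gene was Col3a1, the fibrillar collagen of loose connective tissue. It was at 297 CPM in Notch1-high pixels against 492 in the others in the 50 µm section, replicate 1, at 208 against 304 in replicate 3, at 275 against 544 at 25 µm and at 403 against 492 at 10 µm. The Notch1-high pixels were the lower class in each section, and the gap was smallest at 10 µm. The log2 fold change was -0.60 (SE 0.09, edgeR adjusted p = 0.00252), on 364, 235, 51 and 175 Col3a1 counts in the members. Col3a1 lies on chromosome 1 at 45311538-45349706, plus strand (GENCODE M21, GRCm38).

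Col3a1 was lower under all 19 alternative settings run and passed the edgeR or DESeq2 threshold under 13. With the columns and rows made equal in Notch1 share before the class was drawn, its log2 fold change was -0.37 and its edgeR adjusted p 0.999. With the 4 recurring columns left out instead, it was -0.71 with an edgeR adjusted p of 0.00366. It missed the edgeR threshold without the 50 µm section, replicate 1 (adjusted p = 0.0611) and without the 25 µm section (adjusted p = 0.129).

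No gene passed as higher in edgeR, where 578 genes had an unadjusted p under 0.05 (5.28% of those tested), 295 of them higher (2.69%) and 283 lower (2.59%). DESeq2 passed 3 genes, namely Col3a1 and Hba-x as lower and Tfdp2 as higher. Over all genes tested, 651 were higher in all 4 sections (5.95%) and 885 lower in all 4 (8.08%), and 49% had a log2 fold change above 0, with a median of -0.0039.

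The genes nearest to the threshold on the higher side did not pass it. Tfdp2, a partner of E2F cell-cycle factors, was at 200, 304, 140 and 182 CPM in Notch1-high pixels and at 161, 165, 96.5 and 134 in the others, in the order 50 µm replicate 1, 50 µm replicate 3, 25 µm and 10 µm. Its log2 fold change was 0.57 (SE 0.11, edgeR adjusted p = 0.0586). Kif21a, a kinesin motor, had 0.53 (SE 0.11) with the same adjusted p from edgeR. The next by the same rule were Tmem184c (0.74), Naa15, a subunit of the N-terminal acetyltransferase NatA (0.37), Ybx1, a Y-box RNA- and DNA-binding protein (0.23), and the DNA methyltransferase Dnmt3b (0.75), with edgeR adjusted p from 0.13 to 0.292.

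On the lower side, structural and other genes followed Col3a1 without passing. Col4a1, the basement membrane collagen, was at 208 against 336 CPM in the 50 µm section, replicate 1, at 242 against 375 in replicate 3, at 318 against 441 at 25 µm and at 367 against 380 at 10 µm, with a log2 fold change of -0.47 (SE 0.10, edgeR adjusted p = 0.0586). Col2a1, the collagen of cartilage, had -0.41, Myh9, the heavy chain of non-muscle myosin, -0.49, the cytoplasmic actin Actb -0.16, the Wnt-signal enhancer Rspo3 -0.90 and the ribosomal protein gene Rpl13 -0.21. Their edgeR adjusted p ran from 0.159 to 0.256. Each of these genes was lower in all 4 sections, which the rule for naming them required.

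Against the pixels below each section's median Notch1 share, rather than against all other tissue pixels, 24 genes passed in edgeR, 9 higher and 15 lower. The lower ones included the collagens Col1a2, Col2a1, Col3a1 and Col4a1 (log2 fold changes of -0.53, -0.58, -0.75 and -0.62), the adult beta-globin Hbb-bt (-0.53), carbonic anhydrase Car2 (-0.82) and the matrix proteoglycan Lum (-0.97). The higher ones included Ptprz1, a receptor phosphatase of neural progenitors (0.56), the neural adhesion molecule Chl1 (1.12), the cohesin subunit Smc3 (0.48), Tfdp2 (0.68) and Kif21a (0.80). Chl1 was not higher at 25 µm, where it had 1 count in the members and a log2 ratio of -0.09. Its gap in CPM was widest in the 50 µm section, replicate 3 (130 against 39.1 CPM). All examples of this comparison were chosen after their values were seen.

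The Notch pathway itself showed no passing gene. Of 38 pathway genes in 5 lists, 32 were tested and 16 had log2 fold changes above and 16 below 0. In edgeR 0 passed, and at an unadjusted p under 0.05 there were 0 higher and 1 lower; DESeq2 passed 0 as well. In all 4 sections, 1 of the 32 was higher and 2 were lower, which is near the shares over all tested genes (5.95% and 8.08%).

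Among the 4 receptors the median log2 fold change was 0.03, against -0.0039 over all genes. Notch2, which is broadly expressed, was at 25.3 against 38.5 CPM in the 50 µm section, replicate 1, at 27.5 against 37.7 in replicate 3, at 70.1 against 52.3 at 25 µm and at 73.8 against 45 at 10 µm. It was higher in Notch1-high pixels at 25 and 10 µm and lower in both 50 µm sections, and its log2 fold change was -0.07 (SE 0.21). Notch3, a receptor of mural cells and neural progenitors, had -0.15 (SE 0.17), and the endothelial receptor Notch4 had 0.13 (SE 0.33).

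Of the 5 ligands, Dll1, Dll3 and Jag1 were tested, and Dll4 and Jag2 were too sparse. Dll1, the Delta ligand of nascent neurons and presomitic mesoderm, was at 53.0 against 40.5 CPM in the 50 µm section, replicate 1, at 36.4 against 35.1 in replicate 3, at 53.9 against 29.0 at 25 µm and at 43.8 against 33.5 at 10 µm. It was the only one of the 32 with Notch1-high pixels above the others in every section, as were 5.95% of all tested genes. Dll1 did not pass, with a log2 fold change of 0.34 (SE 0.19, edgeR adjusted p = 0.958). Dll3, a ligand that acts inside the cell, had -0.16 (SE 0.17) and Jag1 0.01 (SE 0.22).

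Of 7 target genes 4 were tested, with a median log2 fold change of 0.16, while Hes7, Hey2 and Nrarp were too sparse. The summed level of the 7 was 234 against 225 CPM in the 50 µm section, replicate 1, and 300 against 290 in replicate 3. It was 361 against 237 at 25 µm and 231 against 207 at 10 µm, higher in each section. The sum was not tested. Hes1, a repressor that holds back neuronal differentiation, was at 66.1 against 59.1 CPM, 90.5 against 73.5, 140 against 77.7 and 80.7 against 89.0 in the same order of sections. Hes5, the neural target of the pathway, was at 120 against 109, 140 against 165, 194 against 109 and 115 against 80.2. Each was higher in 3 of 4 sections, by 0.25 (SE 0.15) and 0.19 (SE 0.14) on the log2 scale. Hey1, a target in vessels and brain, had 0.13 (SE 0.20) and Heyl, a target in vessels and somites, -0.59 (SE 0.40), on 1 Heyl count in the members of each of the 25 and 10 µm sections. With column and row medians subtracted, the median of the targets was -0.22, the other way.

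**Figure D3:**
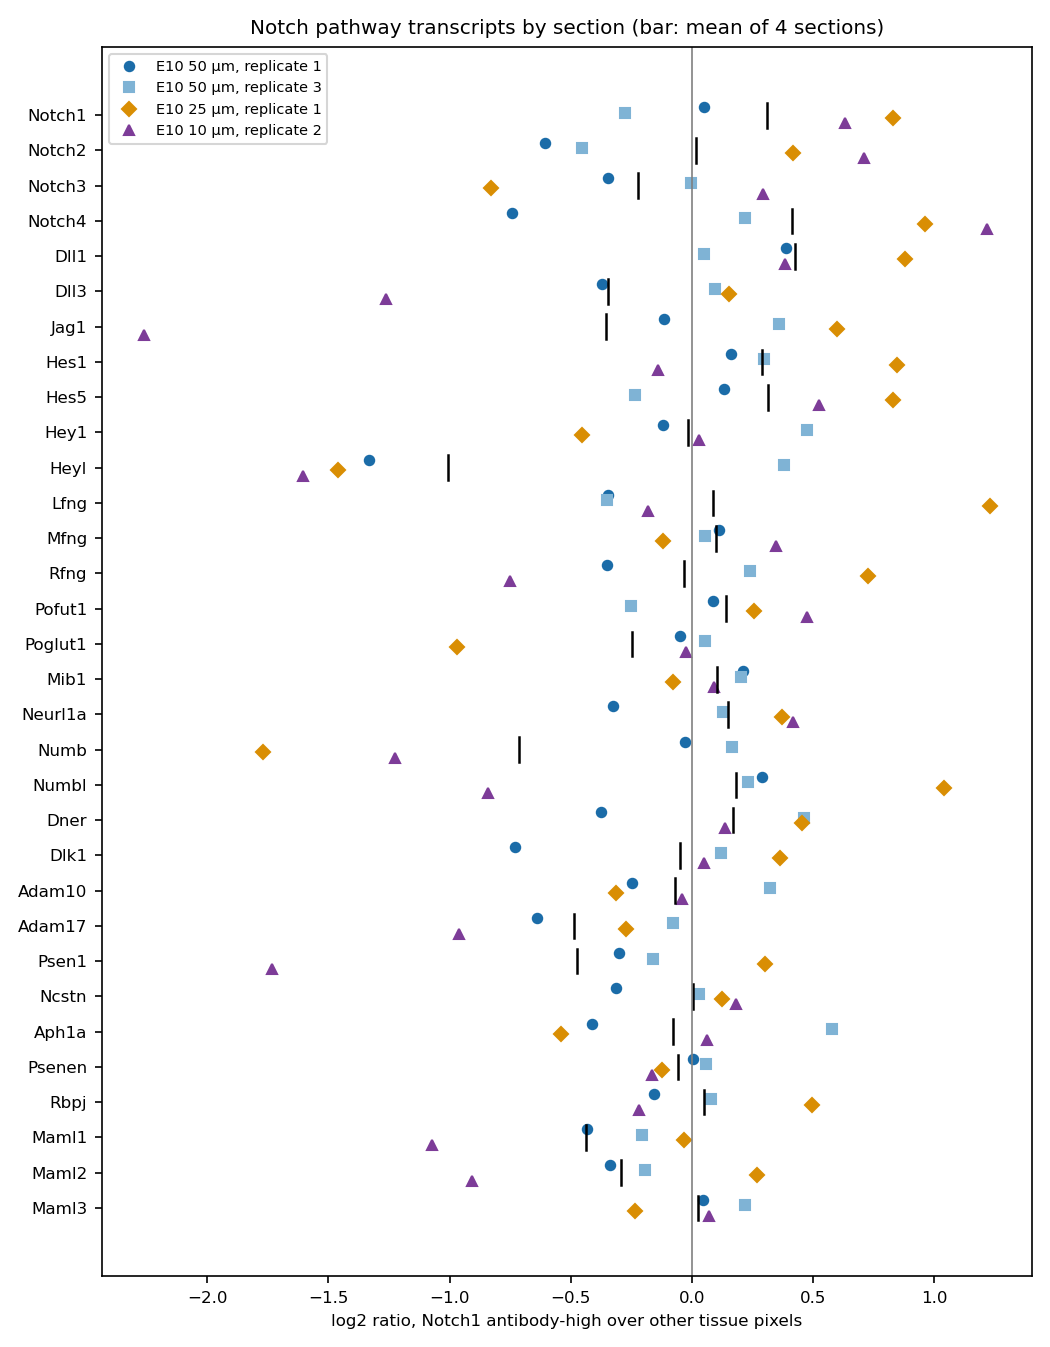
Log2 ratio of the level in Notch1 antibody-high to that in other tissue pixels for 32 Notch pathway genes, 1 symbol per section, with the mean of the 4 sections as a black bar. The symbols of most genes lie on both sides of 0. Of the 32, Dll1 alone is above 0 in all 4 sections, as are 5.95% of all tested genes.

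The genes that modify the receptor or carry out its cleavage and nuclear step were close to the background. Of 11 modifiers, among them the fringe glycosyltransferases Lfng, Mfng and Rfng, the ubiquitin ligase Mib1 and the inhibitor Numb, the median log2 fold change was 0.05. Of the 10 tested genes for cleavage and the nuclear complex it was -0.03, and 2 of them, Adam17 and Maml1, were lower in all 4 sections. Over all tested genes 8.08% were lower in all 4. Adam17, a sheddase, was at 31.0 against 48.3 CPM, 41.7 against 44.0, 43.1 against 52.3 and 25.4 against 49.5, with a log2 fold change of -0.44 (SE 0.19, edgeR adjusted p = 0.862). Rbpj, the DNA-binding partner of the cleaved receptor, had 0.01 (SE 0.13).

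Genes of mesenchyme, blood and vessels were mostly lower in the Notch1-high pixels, in size more than in calls. Over all tested genes 8.08% were lower in all 4 sections and 49% had a log2 fold change above 0. Of 9 mesenchyme genes 8 had log2 fold changes below 0, 5 were lower in all 4 sections and 1, Col3a1, passed, with a median of -0.44. Their summed level was 597 against 997 CPM in the 50 µm section, replicate 1, 523 against 680 in replicate 3, 776 against 1389 at 25 µm and 929 against 989 at 10 µm. Prrx1, a mesenchymal homeobox factor, had -0.70 (SE 0.18) and Lum -0.72 (SE 0.21), with edgeR adjusted p of 0.300 and 0.390. The exception, Dcn, a small proteoglycan, had 0.42 (SE 0.42).

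Of 9 red cell genes all had log2 fold changes below 0, with a median of -0.45. Of the 9, 8 were lower in all 4 sections, as were 8.08% of all tested genes. In edgeR 0 passed and 3 were lower at an unadjusted p under 0.05 (2.59% of all tested genes), and DESeq2 passed Hba-x. The summed level was 23481 against 26272 CPM in the 50 µm section, replicate 1, 10945 against 17204 in replicate 3, 10654 against 21789 at 25 µm and 20084 against 22801 at 10 µm. Alas2, the heme synthesis enzyme of erythroid cells, had -0.72 (SE 0.19) and the embryonic alpha-like globin Hba-x -0.62 (SE 0.22).

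Of 9 endothelial genes 8 were below 0, with a median of -0.39. Of the 9, 3 were lower in all 4 sections, as were 8.08% of all tested genes. In edgeR and in DESeq2 0 passed. At an unadjusted edgeR p under 0.05, 3 were lower (2.59% of all tested genes). Cdh5, the endothelial cadherin, was at 23.7 against 40.1 CPM, 17.7 against 28.1, 10.8 against 30.5 and 39.2 against 50.4 in the same order of sections, with a log2 fold change of -0.66 (SE 0.21, edgeR adjusted p = 0.577). With column and row medians subtracted, the medians were -0.20 for mesenchyme, -0.28 for red cell and -0.28 for endothelial genes, the same direction at a smaller size.

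Neural progenitor genes lay on the other side of 0 by a small margin. Of 9 neural progenitor genes 8 had log2 fold changes above 0, with a median of 0.13. Of the 9, 3 (Sox3, Sox21 and Fabp7) were higher in all 4 sections, as were 5.95% of all tested genes. In edgeR and in DESeq2 0 passed (1 higher at an unadjusted edgeR p under 0.05). The summed level was 2284 against 1927 CPM in the 50 µm section, replicate 1, 2280 against 2220 in replicate 3 and 1886 against 1476 at 25 µm, and equal within 2 CPM at 10 µm (1498 and 1500). Fabp7, the fatty acid binding protein of radial glia, was at 539 against 378 CPM, 387 against 319, 248 against 213 and 297 against 285, a log2 fold change of 0.30 (SE 0.09, edgeR adjusted p = 0.417). With column and row medians subtracted the median of the list was 0.14.

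The 6 tested proneural factors all had log2 fold changes above 0, with a median of 0.25 and 0 edgeR or DESeq2 calls. At an unadjusted edgeR p under 0.05, 2 were higher (2.69% of all tested genes). The summed level of the list was 209 against 183 CPM, 273 against 219, 216 against 138 and 173 against 117, higher in the Notch1-high pixels of each section. Neurod4, a factor of neuronal differentiation, had 0.92 (SE 0.27, edgeR adjusted p = 0.407) with 0 counts in the members of the 10 µm section, where 0 allows up to 6.92 CPM (3 counts, counting error only). The median of this list was -0.07 with column and row medians subtracted.

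Genes of differentiated neurons split by section. The summed level of 10 neuron genes was 4673 against 3387 CPM in the 50 µm section, replicate 3, but 2924 against 3173 in replicate 1, 1773 against 1703 at 25 µm and 805 against 928 at 10 µm. Their median log2 fold change was 0.13, with 0 edgeR or DESeq2 calls and 1 higher at an unadjusted edgeR p under 0.05. In replicate 3 the members in columns that were mostly Notch1-high stood at 5772 CPM and the members in its other columns at 3289, near the 3387 of the other pixels. The same split of members gave 1811 and 686 CPM at 10 µm. It went the other way in replicate 1 (2057 and 3037) and at 25 µm (435, on 8 members, and 1825). Pixels of these columns outside the class were not measured separately, so a link between neuron genes and stripes was not tested.

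**Figure D4:**
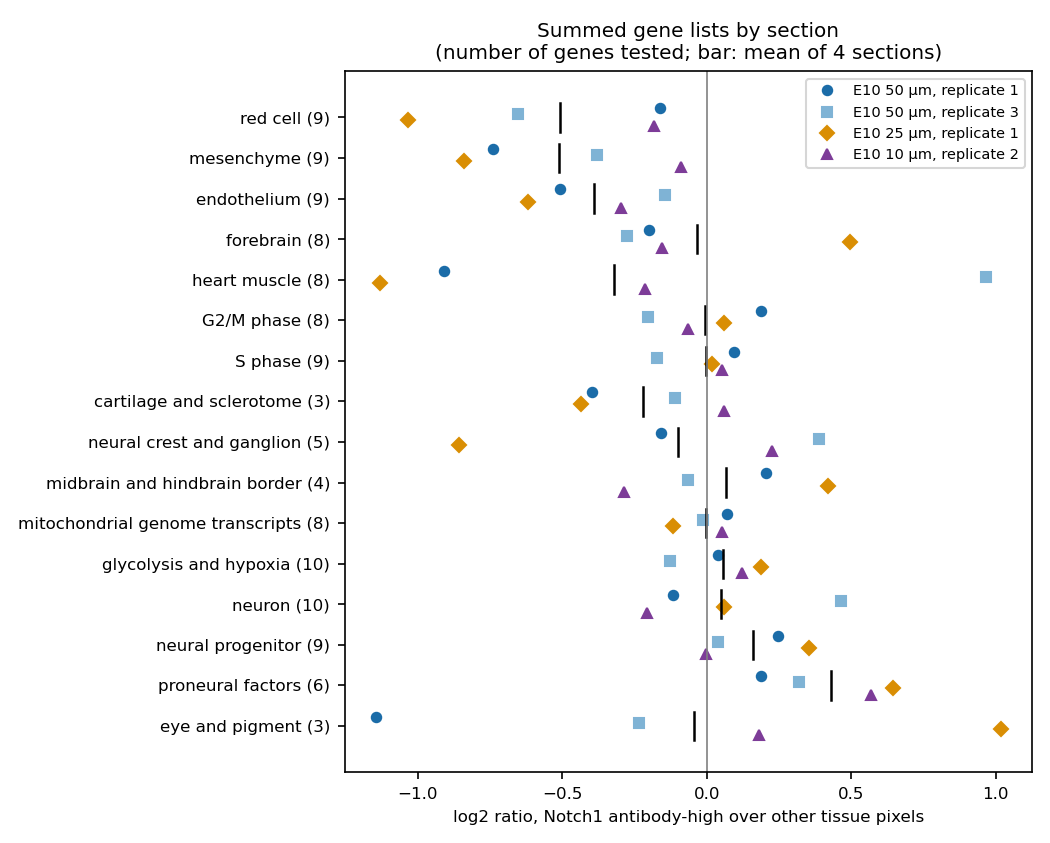
Log2 ratio of the summed level of each gene list in Notch1 antibody-high to other tissue pixels, 1 symbol per section, with the mean of 4 sections as a black bar and lists ordered by the median log2 fold change of their genes. Red cell, mesenchyme and endothelium genes lie below 0 in all 4 sections and proneural factors above 0; heart muscle genes are split.

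Heart muscle genes moved in opposite directions between sections. Their summed level was 1163 CPM in Notch1-high against 594 in other pixels in the 50 µm section, replicate 3, while it was 445 against 836 in replicate 1, 690 against 1509 at 25 µm and 16.1 against 18.7 at 10 µm. The 10 µm section holds almost no heart transcript. In replicate 3 the 41 members in the mostly Notch1-high columns, 29 and 46, stood at 235 CPM and the 43 other members at 2331. Of those 43, 14 lay in column 33 and 9 in column 30, which are recurring columns too. This split therefore does not separate members in stripes from the rest. Without replicate 3 at 50 µm, the atrial light chain Myl7 (log2 fold change -1.67), the heavy chain Myh7 (-1.30) and the cardiac actin Actc1 (-1.06) were lower with edgeR adjusted p of 0.0126, 0.0195 and 0.0471, and with all 4 sections 0 of the 8 tested passed in edgeR or DESeq2 (2 lower at an unadjusted edgeR p under 0.05). Myl7 had 0.28 (SE 0.96) with all 4.

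The other 14 gene lists, for brain regions, eye, crest, liver, macrophages, epithelium, cartilage, somite muscle, cell cycle, glycolysis, immediate early genes and mitochondrial transcripts, held 67 tested genes. None passed in edgeR or DESeq2. At an unadjusted edgeR p under 0.05, 4 were higher and 4 lower, against 2.69% and 2.59% of all tested genes. The list medians ran from -0.57 to 0.39. The ends of that range belong to liver, with 1 tested gene, and to eye and pigment, with 3. The forebrain list, unlike the neural progenitor list, had 6 of 8 tested genes below 0 and a median of -0.13. Its summed log2 ratios were -0.20 and -0.28 in the 50 µm sections, replicates 1 and 3, 0.50 at 25 µm and -0.16 at 10 µm.

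The ends of the range of the Notch1 share differed in the same lists, without an even change between them. From the lowest to the highest decile of pixels, summed mesenchyme genes went from 1429 to 597 CPM in the 50 µm section, replicate 1, from 1017 to 523 in replicate 3, from 1735 to 776 at 25 µm and from 1711 to 928 at 10 µm. Red cell genes went from 32920 to 23481, from 29301 to 10945, from 40416 to 10654 and from 27173 to 20201. Endothelial genes went from 360 to 201, from 314 to 192, from 863 to 205 and from 388 to 229. Neural progenitor genes went the other way, from 1275 to 2284, from 1814 to 2280, from 956 to 1886 and from 1263 to 1501. In 13 of these 16 list and section pairs the lowest decile lay farther from the middle deciles on the log scale than the highest decile. The Notch1 share is a part of all antibody counts, and these pixels share depth and column, so no test was made.

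**Figure D5:**
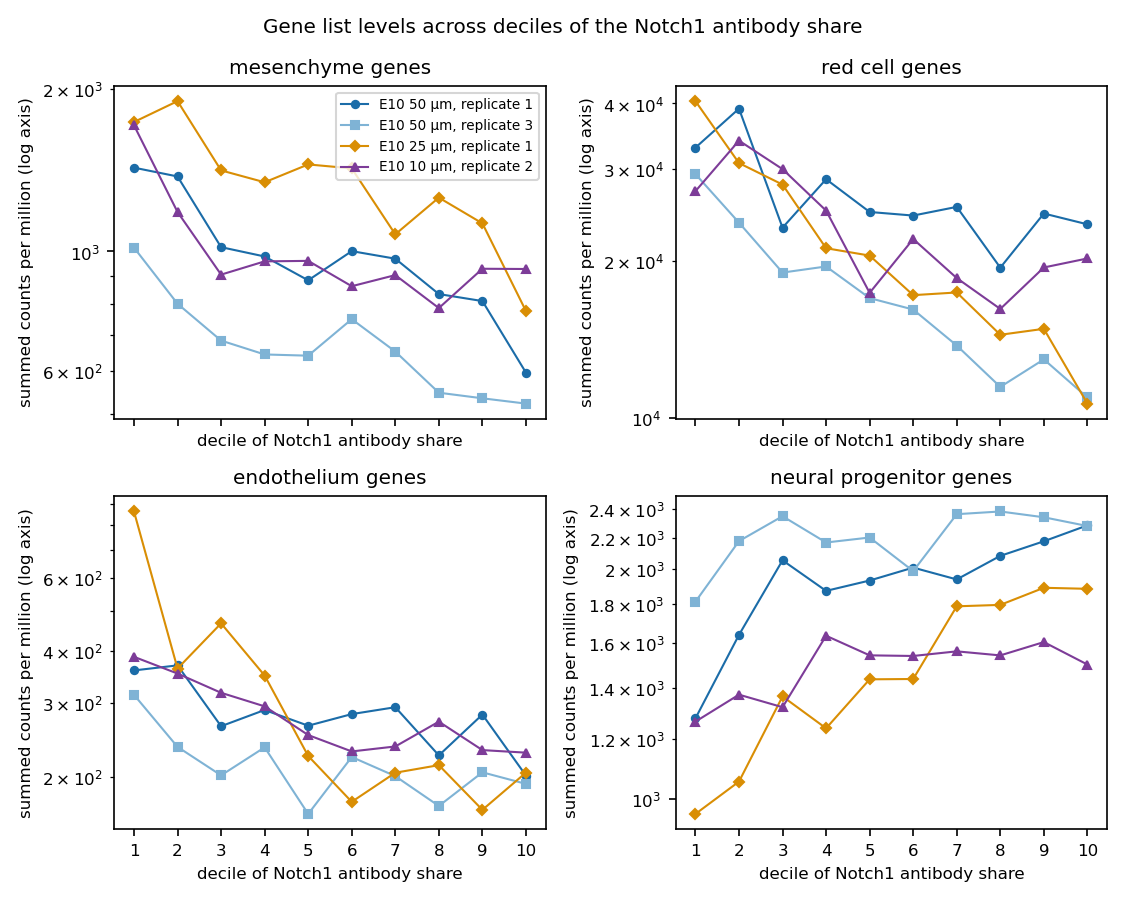
Summed CPM (log axis) of 4 gene lists in deciles of tissue pixels ordered by Notch1 antibody share, 1 line per section; decile 10 is the Notch1 antibody-high class, apart from tied pixels at the threshold in the 10 µm section. Mesenchyme, red cell and endothelium genes are lower in decile 10 than in decile 1 of each section, and neural progenitor genes are higher.

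MAdCAM-1, an adhesion molecule of specialised endothelium, was the antibody whose high pixels overlapped most with the Notch1-high class among the 4 compared, and the comparison with it leaves out the 105 shared pixels. On each side 61, 71, 145 and 192 pixels remained in the 50 µm sections, replicates 1 and 3, the 25 µm and the 10 µm section. Of 8220 genes tested, 6 passed in edgeR (0.073%), 3 higher (0.0365%) and 3 lower (0.0365%) in Notch1-high pixels. Ntn1, the axon guidance factor netrin of the floor plate, was at 41.1 against 17.5 CPM, 77.9 against 20.1, 32.3 against 7.22 and 19.4 against 8.76, a log2 fold change of 1.59 (SE 0.34, edgeR adjusted p = 0.0414). Ntn1 was higher in every section, though its count in the members was 5 at 25 µm and 7 at 10 µm. It passed under 2 of the 6 alternatives in which it was tested, with log2 fold changes from 0.83 to 1.66.

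The neural adhesion molecule Chl1 (1.62, SE 0.29, edgeR adjusted p = 0.0102) and the muscle protein Ttn (1.39, SE 0.28, edgeR adjusted p = 0.0232) also passed as higher but not in the same direction in all 4 sections, and are named after their values were seen. Otx1, a homeobox factor of forebrain and midbrain, was at 9.72 against 36.5 CPM, 20.5 against 80.4, 19.4 against 79.4 and 36.1 against 48.2, a log2 fold change of -1.58 (SE 0.31, edgeR adjusted p = 0.0223). Cntnap2, a neurexin-family protein of neurons, had -0.99 (SE 0.20, edgeR adjusted p = 0.0232) and the adult alpha-globin Hba-a2 -0.67 (SE 0.10, edgeR adjusted p = 0.0223). Otx1 and Cntnap2 were lower under all 9 alternatives and passed under 3 of 9 each, and Hba-a2 was lower under all 9 and passed under 7. The axon guidance ligand Slit2 (0.80, SE 0.18) and the neuronal factor Onecut2 (0.59, SE 0.15) were higher in all 4 sections without passing, with edgeR adjusted p of 0.0622 and 0.177. Of the Notch lists in this comparison, 3 receptors and 3 targets were tested with 0 edgeR or DESeq2 calls and medians of 0.20 and 0.31. Without the 25 µm section 1 gene passed, and without the 10 µm section 20 did.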

How the data were processed

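The authors deposited, per library, a table of whole-number counts for each pixel and gene symbol or antibody, not normalized, and a list of 2500 barcodes with their grid positions. Per the submitters' processing notes, CASAVA 1.8.2 and build GRCh38 were named; GRCh38 is a human build, and the aligner, annotation, duplicate handling and use of strand are not given in the sources used here. Of 16 Ensembl-named columns, 15 were matched to a symbol. The 8 sums tested (2 classes in 4 sections) held between 185566 and 10121964 counts. Members and gene lists were chosen with earlier results of these data known.

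Counts were summed over Notch1-high and over other tissue pixels of each of the 4 sections. edgeR 4.0.16 (R 4.3.3) was run with TMM scaling, its default filter on low counts, a robust quasi-likelihood fit with section as block and Benjamini-Hochberg adjustment, leaving 3 residual degrees of freedom. DESeq2 1.42.0 was an alternative. Same-section sums come from 1 tissue section, which is the source of the pairing. Ratios per section use a pseudocount of 0.5 counts, scaled to the size of the sum. On counts simulated for 10947 genes, the test recovered 48 of 50 genes raised by 1 on the log2 scale, 29 of 50 lowered by 1, 15 of 50 raised by 0.5 and 18 of 50 lowered by 0.5. It also called 3 unchanged genes. Changed genes were drawn only from those with higher total counts, and the common dispersion (0.0094) served for every gene. Recovery for sparse genes, or with a spread that differs by gene, was therefore not measured. Genes were named where they passed an adjusted p of 0.05 with a mean of at least 10 CPM and the same direction in all 4 sections (up to 12 a direction, up to 5 against MAdCAM-1). With fewer than 4 passing, the 6 with the smallest unadjusted p were added, and symbols of the Gm or Rik type were left out. Every Notch receptor, ligand and target was named as well. Single-gene results for some list members are not reported here.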

Additional observations from a re-analysis of the deposited data

Results flagged for a closer look

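Of 86 sets of 4 per-section log2 ratios checked, 7 had 1 section far from the other 3 (Dixon's test at the 95% level), where chance flags about 1 set in 20. Transcripts per pixel in the 10 µm section stood at -0.40 against 0.17 to 0.28 elsewhere. The 10 µm section also moved opposite to both 50 µm sections in that measure (-0.40), a difference between pixel widths that was not tested.

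Heyl stood at 0.38 in the 50 µm section, replicate 3, against -1.61 to -1.33 in the others. In the 25 µm section Lfng stood at 1.23 against -0.35 to -0.18, Poglut1 at -0.97 against -0.05 to 0.05, and the summed forebrain list at 0.50 against -0.28 to -0.16. Against MAdCAM-1-high pixels, in the 10 µm section, Otx1 stood at -0.41 against -1.94 to -1.84 and Rspo3 at -0.32 against -1.90 to -1.65.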

How the results depend on the processing

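Between Notch1-high and other pixels 1 gene passed in the reported fit. The count was 0 to 18 with 1 section left out in turn, 3 with DESeq2, 24 without the filter on low counts, 9 with the top 20%, 2 with a tissue minimum of 0.2 of the 95th percentile, 5 with a minimum antibody total, 4 without the most abundant antibody in the denominator, and 24 against pixels below the median. It was 0 with row and column medians subtracted (454 at an unadjusted p under 0.05), and 0 without the replicate block (88). Alternatives added after seeing the data left out the columns that were mostly Notch1-high (7) or the 4 recurring columns (8). With the top 5% and with the raw Notch1 count 1 gene passed each, which was not Col3a1. The Notch1 transcript's log2 fold change ran from -0.0083 (without the 10 µm section) to 0.32 (without the 50 µm section, replicate 3). The mean log2 ratio of transcripts per pixel was -0.18 with row and column medians subtracted. Against MAdCAM-1-high pixels 6 genes passed, 1 to 20 with 1 section left out in turn, 2 with DESeq2, 31 without the filter and 3 with the top 5%. Myl7 ran from -1.67 (without the 50 µm section, replicate 3) to 1.15 (without replicate 1 at 50 µm). Over the named genes and all alternatives, 672 values kept their sign and their side of the threshold, 58 passed where the reported value did not, 24 no longer passed, 63 changed sign without passing under either setting, and 1 changed sign and passed (Myl7 at -1.67). The causes were not tested. The 25 µm section had 185566 counts in its Notch1-high sum, the least of the 8, and limits every gene there.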
